A study of Mus musculus with 4 samples.

Results

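A set of 8 genes of sterol and fatty acid synthesis were followed in 4 poly(A) RNA-seq libraries of mouse hippocampus and of a hippocampal cell line that differed in choline supply. The 8 genes were chosen by symbol, as the SREBP transcription factors and a set of their targets, and each symbol matched 1 of the 22328 genes in the deposited count tables. They were the factors Srebf1 and Srebf2, their inhibitor Insig1, the sterol enzymes Hmgcs1, Idi1 and Sqle, and the fatty acid enzymes Fasn and Scd2. F1m-CON hippocampus came from offspring of dams on a normal diet with 1.1 g/kg choline chloride, and F1m-GCS hippocampus from offspring of dams given 5 g/kg from embryonic day 9 to birth. Both groups ate a basal diet after birth, and they were tested for behaviour when 2 months old. The labels name no strain or genotype, and do not say whether a hippocampus library holds 1 animal or a pool. HT22 cells, an immortalised mouse line labelled as hippocampal neuron cells, were grown in high-glucose medium with serum and received choline chloride at 5 µM (CON) or 70 µM (SUP) for 48 h. With 1 library in each group there is no replicate check of any difference and no test of a condition was possible, and all intervals cover counting error only.

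Reads in genes numbered 31175015 (F1m-CON) and 30265820 (F1m-GCS) in hippocampus, and 18305096 (CON) and 13192007 (SUP) in HT22 cells. The 8 genes took between 0.256% and 0.337% of them. The hippocampus libraries carried strong neuronal, oligodendrocyte and astrocyte marker signal, with the 10 neuron markers summing to 10303 and 10227 reads per 1000000 reads in genes (CPM). In HT22 cells the same 10 markers summed to 311 CPM in CON and 381 CPM in SUP, so the line held little of the neuronal marker RNA of the tissue. Oligodendrocyte markers summed to 11.0 CPM in CON, where Cldn11 had 0 reads, and to 24.3 CPM in SUP, where Ermn, Ugt8a and Opalin had 0 reads.

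Cells make cholesterol from acetyl-CoA through the mevalonate pathway and make saturated and monounsaturated fatty acids through fatty acid synthase and the stearoyl-CoA desaturases. Both routes are driven by the sterol regulatory element-binding proteins, SREBP-1 (from Srebf1) and SREBP-2 (from Srebf2), which are made as membrane proteins of the endoplasmic reticulum. When membrane sterol is low, the escort protein SCAP carries them to the Golgi, where the site-1 and site-2 proteases release the part that enters the nucleus. Insig proteins hold the complex back when sterol is plentiful. The brain makes nearly all of its own cholesterol, much of it in glia and for myelin. Phosphatidylcholine, the main product of choline in membranes, is a partner of sterol in those membranes, and its supply is known to affect SREBP-1 processing.

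The promoters of the genes are shown first because SREBP targets are known for a control element there. RefSeq promoters (GRCm38.p6, the assembly behind mm10) matched 6 of the 8 genes, and the window searched was the 250 bases before each start. On both strands, 2 forms of the sterol regulatory element were searched, TCACNCCAC and CACCCCAC, which overlap each other, together with the E box CACGTG, the NF-Y box CCAAT and the Sp1 box GGGCGG. Capitals mark every match, and ATTGG and CCGCCC are the NF-Y and Sp1 boxes on the other strand. The 4 sequences printed stand for the roles of sterol enzyme, inhibitor, factor and fatty acid enzyme and hold no base past the gene start of RefSeq or of the deposited table.
Hmgcs1, chr13:119690101-119690350, plus strand: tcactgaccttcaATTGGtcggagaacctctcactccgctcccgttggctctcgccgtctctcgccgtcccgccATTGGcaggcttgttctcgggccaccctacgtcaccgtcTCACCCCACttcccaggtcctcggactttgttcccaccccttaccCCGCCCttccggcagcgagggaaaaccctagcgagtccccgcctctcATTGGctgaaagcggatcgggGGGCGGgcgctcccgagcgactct
Insig1, chr5:28071162-28071362, plus strand: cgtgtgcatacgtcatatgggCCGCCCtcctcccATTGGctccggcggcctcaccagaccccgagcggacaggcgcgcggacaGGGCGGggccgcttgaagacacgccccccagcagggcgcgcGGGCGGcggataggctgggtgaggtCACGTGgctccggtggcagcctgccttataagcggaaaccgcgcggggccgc
Srebf2, chr15:82147019-82147265, plus strand: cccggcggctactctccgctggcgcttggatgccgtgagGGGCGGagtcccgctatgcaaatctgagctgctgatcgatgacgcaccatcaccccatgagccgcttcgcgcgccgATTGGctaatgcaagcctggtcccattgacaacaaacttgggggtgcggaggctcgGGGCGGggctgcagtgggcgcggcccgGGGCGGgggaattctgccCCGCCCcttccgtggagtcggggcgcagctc
Fasn, chr11:120824548-120824797, minus strand: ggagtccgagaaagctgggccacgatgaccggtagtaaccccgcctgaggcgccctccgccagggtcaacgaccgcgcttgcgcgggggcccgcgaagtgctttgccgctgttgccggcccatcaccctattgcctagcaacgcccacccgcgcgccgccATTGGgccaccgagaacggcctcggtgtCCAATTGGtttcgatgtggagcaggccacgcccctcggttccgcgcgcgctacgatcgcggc
The Hmgcs1 window held both forms of the sterol element, at the same place 137 bases before the start, with 3 NF-Y and 2 Sp1 boxes. Neither form was in a window of Idi1, Insig1, Srebf1, Srebf2 or Fasn. TCACNCCAC was in 1.05% and CACCCCAC in 2.58% of the 32851 promoters of the table. Insig1 was the 1 gene of the 6 with the E box, which 6.02% of all promoters hold. NF-Y boxes were found in at least 1 window of all 6 genes, with 3 in Fasn and 2 in Idi1, against 33.8% of all promoters. This share and that for Sp1 boxes count single promoters, whereas Srebf1 had several windows and any match among them was counted. Sp1 boxes, held by 32.7% of all promoters, were in windows of Hmgcs1, Idi1, Insig1, Srebf1 and Srebf2. All Idi1 matches, and all Srebf1 matches except 1 NF-Y box, lay inside the gene as placed in the deposited table. In Fasn no Sp1 box of exactly these letters lay in the window, and 2 of its 3 NF-Y boxes overlap each other on opposite strands. These matches describe letters in the windows and are not sites of measured binding.

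Levels of different genes are compared as RPKM, in which the authors divided reads by coding length in kilobases and by uniquely mapped reads in units of 1000000. In F1m-CON hippocampus Scd2, the main stearoyl-CoA desaturase of brain, stood first at 1104 RPKM, above 99.7% of genes with at least 50 reads. It was followed by Hmgcs1 at 182 RPKM, Insig1 at 75.2, Srebf2 at 54.9, Sqle at 43.8, Fasn at 33.3, Srebf1 at 15.8 and Idi1 at 5.38. F1m-GCS gave the same order, and in neither library did the counting intervals of neighbours in the order overlap. Coding length leaves out untranslated bases, so this order and those in HT22 cells rest on that choice of length. In CPM, which is not divided by length, Fasn at 315 and Srebf2 at 234 stood above Insig1 at 73.8 in F1m-CON. Srebf2 thus stood above Srebf1 in both hippocampus libraries.

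In HT22 CON Scd2 was again first, at 748 RPKM. Sqle at 236 RPKM and Hmgcs1 at 234 RPKM came next and could not be told apart within counting error, ahead of Insig1 at 206. Srebf2 had 99.3 RPKM, Fasn 38.8, Idi1 22.7 and Srebf1 20.5, the last pair with overlapping intervals. In HT22 SUP Hmgcs1 at 186 RPKM stood above Sqle at 164, and Srebf1 at 14.8 and Idi1 at 13.9 overlapped. RPKM was not compared between the HT22 libraries, because reads in genes were 72.9% of uniquely mapped reads in CON and 63.1% in SUP. Srebf2, for instance, had 99.3 and 86.1 RPKM in these libraries but 463 CPM in both.

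**Figure D1:**
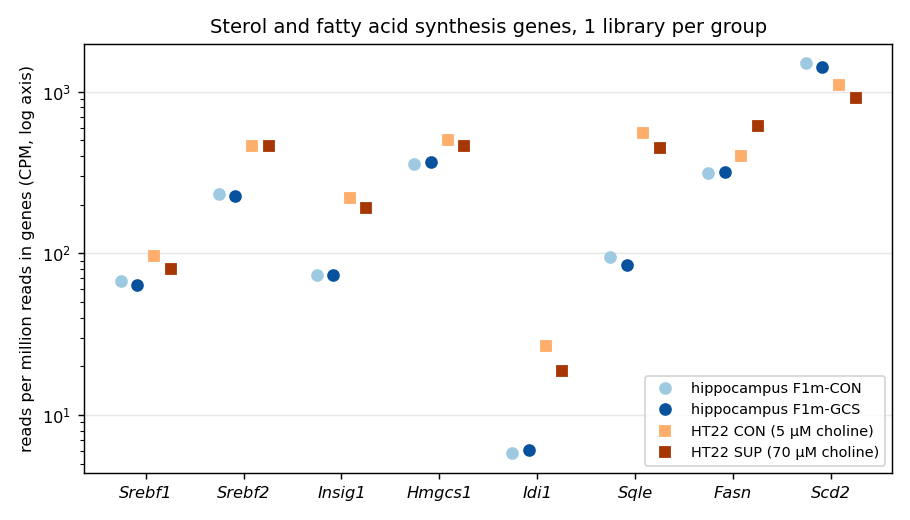
Level of each of the 8 genes in the 4 libraries, in CPM on a log axis; circles are hippocampus, squares HT22 cells, and each point is 1 library. The hippocampus points of a gene nearly coincide, Sqle, Idi1 and Insig1 stand well above them in HT22 cells, and Fasn is the gene with SUP above CON.

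Sterol genes were higher in the cell line than in the tissue. Sqle, squalene epoxidase, had 94.7 CPM in F1m-CON, 85.1 in F1m-GCS, 557 in HT22 CON and 447 in HT22 SUP, so both HT22 libraries lay above both hippocampus libraries. Between the control libraries the log2 ratio of Sqle was 2.41 (2.36 to 2.48), a 5.33-fold higher level in HT22 CON. Idi1, isopentenyl diphosphate isomerase, had 5.77 and 6.08 CPM in hippocampus and 26.6 and 18.8 CPM in HT22 CON and SUP, with a log2 ratio between controls of 2.05 (1.81 to 2.32). Insig1 had 73.8 and 73.3 CPM in hippocampus and 220 and 190 CPM in HT22 cells, with a log2 ratio of 1.44 (1.36 to 1.51). Srebf2 had 234 and 227 CPM in hippocampus and 463 CPM in both HT22 libraries, with a log2 ratio of 0.84 (0.80 to 0.89).

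The other 4 genes were within 1.5-fold between the control libraries. Hmgcs1 had a log2 ratio of 0.35 (0.31 to 0.39), Srebf1 0.36 (0.27 to 0.45) and Fasn 0.21 (0.16 to 0.25). Scd2 was the 1 gene lower in the line, at -0.58 (-0.60 to -0.55). In all, 4 of the 8 were at least 1.5-fold higher in HT22 CON, a class that held 35.7% of the 13924 genes measured, and none was 1.5-fold lower, against 41.2%. Here measured means 50 or more reads in 1 of the 2 libraries compared, and a gene counted as 1.5-fold higher or lower also had a counting interval that left out a log2 ratio of 0. The interval lay above 0 for 7 of the 8, a class with 45% of measured genes, and below 0 for Scd2, a class with 48.9%. Of the 21 sterol synthesis enzymes, 19 were at least 1.5-fold higher in HT22 CON, with a median log2 ratio of 2.05 against -0.10 for all measured genes. Their summed level was 1389 CPM in F1m-CON and 5002 CPM in HT22 CON. Scaling by total counts in place of TMM raised all ratios of line to tissue by 0.14, and Scd2 was then at -0.44. With DESeq2 size factors Scd2 was at -0.59, just past 1.5-fold lower. Subtracting the median of measured genes of like coding length and GC content put Srebf1 and Fasn both at 1.02, so 6 of the 8 passed 1.5-fold, with a median of 1.16 in place of 0.60, and Hmgcs1 was at 0.08. A cell line and a tissue differ in cell types, growth and medium at once, which these 2 libraries cannot tell apart.

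In the hippocampus the 8 genes differed little between the F1m-GCS and F1m-CON libraries. With 1 library per group this cannot answer whether choline before birth leaves a mark on lipid synthesis genes. None of the 8 was 1.5-fold higher, against 1.80% of the 13392 measured genes, and none 1.5-fold lower, against 0.904%. Their log2 ratios ran from -0.14 to 0.08, with a median of -0.02 against -0.0042 for all measured genes. The counting interval lay below 0 for Sqle and Scd2, a class with 18.8% of measured genes, and above 0 for Hmgcs1, a class with 20.9%. After the length and GC correction 5 intervals lay below 0, those of Srebf1, Srebf2, Hmgcs1, Sqle and Fasn, and none above, on a scale where 16.3% of measured genes lay below and 17.7% above. In bulk tissue fewer cells of a type and less RNA per cell cannot be told apart.

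Among the regulators, Srebf1 (chr11:60199089-60222581 in mm10, minus strand), whose SREBP-1 products act mainly on fatty acid genes, had 2107 reads in F1m-CON and 1922 in F1m-GCS. Its log2 ratio was -0.08 (-0.17 to 0.01), with an interval that included 0, or -0.11 (-0.20 to -0.02) after the length and GC correction. Srebf2 (chr15:82147266-82205376, plus strand), which acts mainly on sterol genes, had 7304 and 6883 reads and a log2 ratio of -0.03 (-0.08 to 0.02), or -0.06 (-0.11 to -0.01) when corrected. Insig1 (chr5:28071363-28078662, plus strand), the inhibitor of the factors and itself an SREBP target, had 2302 and 2219 reads and a log2 ratio of 0.0012 (-0.08 to 0.09).

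Among the sterol enzymes, Sqle (chr15:59315077-59331192, plus strand) was lower in F1m-GCS, with 2952 and 2576 reads and a log2 ratio of -0.14 (-0.22 to -0.07). This is the lowest ratio of the 8 and stood at percentile 17.0 of measured genes. Hmgcs1 (chr13:119690462-119708086, plus strand), the synthase that makes HMG-CoA in the cytosol, had 11155 and 11102 reads and a log2 ratio of 0.05 (0.01 to 0.09). After the length and GC correction it was -0.08 (-0.12 to -0.04), so its direction rests on that choice. Idi1 (chr13:8885501-8892451, plus strand) had 180 and 184 reads, the fewest of the 8, and a log2 ratio of 0.08 (-0.22 to 0.39), so a change of up to that size was not detectable at this depth.

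Of the fatty acid enzymes, Fasn (chr11:120805940-120824178, minus strand), which builds palmitate from malonyl-CoA, had 9809 and 9585 reads and a log2 ratio of 0.02 (-0.02 to 0.06), or -0.07 (-0.11 to -0.02) when corrected. Scd2 (chr19:44293676-44306864, plus strand) had 46681 and 42904 reads and a log2 ratio of -0.07 (-0.09 to -0.05), or 0.0023 (-0.02 to 0.02) after the correction. Scd2 has the close paralogues Scd1, Scd3 and Scd4 in the same cluster, among which the counting could split reads. Scd1, named here for that reason, had 7560 and 6834 reads and -0.09 (-0.14 to -0.04). Scd2 is known to be abundant in myelinating cells. Beside these values, 7 of the 11 oligodendrocyte markers had intervals below 0 and 3 above 0, against 18.8% and 20.9% of measured genes, and their summed level was 7398 CPM in F1m-CON and 7025 CPM in F1m-GCS, none of them at 0 reads. Intervals also lay below 0 for 6 of 10 neuron and 7 of 10 astrocyte markers, and above 0 for 2 of each. After the length and GC correction 4 oligodendrocyte intervals lay below 0 and 2 above, with a median of -0.01. On that scale 2 neuron intervals lay below 0 and 3 above, and 5 astrocyte intervals lay below 0 and 2 above. Of the 10 choroid plexus markers 9 had intervals below 0, with sums of 1928 and 1645 CPM. As counted, 3 of the 10 endothelial markers had intervals above 0 and 1 below, and 4 of the 10 microglia markers below and none above. The part of any of these markers in the lipid gene values was not tested. The authors' deposited table gives log2 fold changes of -0.14 for Sqle and -0.07 for Scd2 with edgeR false discovery rates of 0.0122 and 0.0239. No replicate library stands behind these rates, and the other 6 genes had rates of 0.332 or more.

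In the wider pathway in hippocampus, of the 21 sterol synthesis enzymes none was 1.5-fold higher or lower, and the median log2 ratio was -0.02. The interval lay above 0 for 1 and below 0 for 3, against 20.9% and 18.8% of measured genes. Outside the 8 genes, Ebp, a sterol isomerase, had -0.32 (-0.49 to -0.16), Acat2 -0.20, Lbr -0.15 and Mvd 0.12. Of these 18 other enzymes 2, Ebp among them, had intervals below 0 and none above, so that of Mvd included 0. Of 21 measured genes of fatty acid synthesis and desaturation none passed 1.5-fold, and the median was -0.06. Intervals lay above 0 for 3 and below 0 for 8, against 20.9% and 18.8% of measured genes. After the length and GC correction 2 lay above and 5 below, with a median of -0.01, against 17.7% and 16.3%. Elovl6, the elongase of palmitate, was farthest from 0, with 1999 and 2531 reads and 0.39 (0.31 to 0.48), with 0.32 after the correction. Acacb had 0.27, Mid1ip1 -0.13 and Hsd17b12 -0.12.

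Of the 12 matched genes of the SREBP factors and their processing none passed 1.5-fold, and 2 had intervals below 0, against 18.8% of measured genes. Among these was Erlin2, a membrane protein of the endoplasmic reticulum, at -0.16. After the correction 6 of the 12 had intervals below 0, against 16.3% of measured genes. As counted, Ubxn8 had 0.15 and Mbtps2, the site-2 protease, 0.08, each with an interval that included 0. Of 13 measured genes of sterol uptake and trafficking 4 had intervals above 0 and 2 below, against 20.9% and 18.8% of measured genes. Their median was 0.05. After the length and GC correction 4 lay above and 1 below, with a median of 0.03, against 17.7% and 16.3%. Stard4, a cytosolic sterol carrier and SREBP-2 target, had 831 and 1005 reads and 0.33 (0.19 to 0.46). Scarb1 had -0.19 and Npc2 -0.18. Among genes of sterol efflux and turnover, Abca1, the cholesterol exporter induced by liver X receptors, had 0.18 (0.07 to 0.29), and Nr1h3, the gene of liver X receptor alpha, -0.28 (-0.67 to 0.09).

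In the triglyceride list Agpat2 had 0.26, with an interval that included 0, and Pnpla2, a lipase, -0.23. Of its 11 measured genes 2 had intervals below 0 and none above, against 18.8% and 20.9% of measured genes, with a median of -0.02. After the length and GC correction 2 lay below and 2 above, with a median of 0.03. Fatty acid oxidation genes, listed as the opposing route, had a median of -0.11 over 17 measured genes, against -0.0042 for all measured genes. Of their intervals 7 lay below 0 and 2 above, against 18.8% and 20.9% of measured genes. After the length and GC correction 5 lay below and 1 above, with a median of -0.07, against 16.3% and 17.7%. Cpt2, a mitochondrial carnitine palmitoyltransferase, had 324 and 209 reads and -0.57 (-0.84 to -0.32), and Acaa2 -0.26. No gene of the uptake, efflux, triglyceride and oxidation lists passed 1.5-fold in hippocampus as counted. After the coding length correction alone Cpt2 did, at -0.59, and with a minimum of 10 reads 1 gene of the uptake list did, on the higher side.

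**Figure D2:**
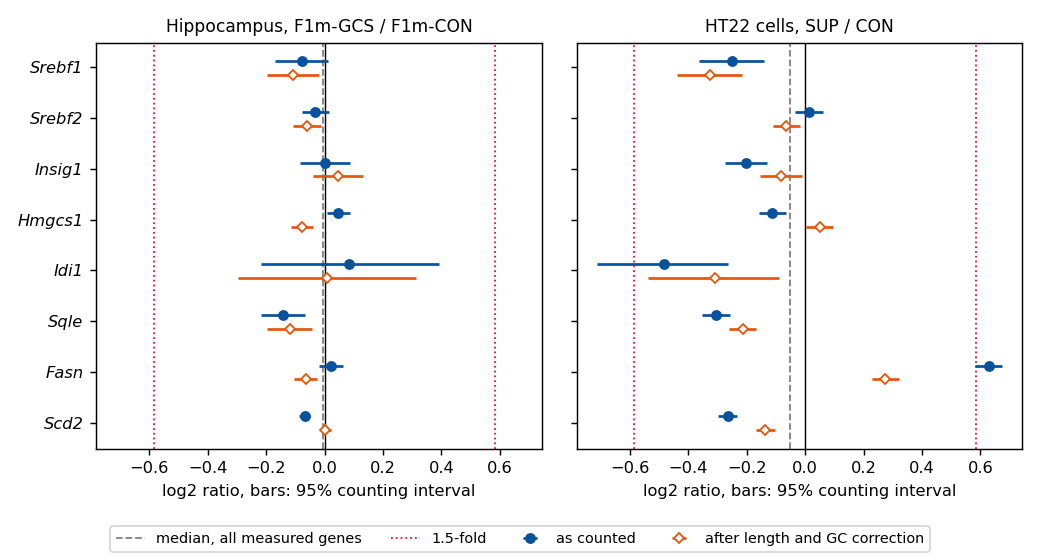
Log2 ratio of the 8 genes in hippocampus (F1m-GCS over F1m-CON, left) and HT22 cells (SUP over CON, right); bars are 95% counting intervals, filled points are as counted and open diamonds are after the length and GC correction. The filled hippocampus points lie between -0.14 and 0.08, whereas in HT22 cells 6 genes lie below 0 and Fasn stands apart at 0.63.

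In HT22 cells the 8 genes spread more widely between SUP and CON. Fasn was higher in SUP, Srebf2 was level, and the other 6 genes were lower by less than 1.5-fold. Of the 8 genes 1 was at least 1.5-fold higher, against 5.13% of the 10854 measured genes, and none was 1.5-fold lower, against 2.89%. The counting intervals of 6 genes lay below 0, in a comparison where those of 32.7% of measured genes did, and that of 1 gene lay above 0, against 22.4%. The median log2 ratio of the 8 was -0.23, against -0.05 for all measured genes.

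Fasn had 7324 reads in CON and 8095 in SUP, which is 400 and 614 CPM. Its log2 ratio was 0.63 (0.58 to 0.67), a 1.55-fold higher level that lies just past the 1.5-fold rule, at a log2 value of 0.58. The Fasn coding sequence has 7515 bases and falls in the longest of 10 equal groups of genes by coding length. In HT22 cells that group had a median of 0.29, and 22.9% of its 1086 genes were at least 1.5-fold higher in SUP, against medians from -0.12 to 0.02 in the other groups. Within its length group Fasn stood at percentile 80.0, and after subtraction of the group's median its log2 ratio was 0.33 (0.29 to 0.38). With GC content also corrected it was 0.27 (0.23 to 0.32), so it stayed above 0 but no longer passed 1.5-fold.

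Fasn and the desaturase that acts on its product differed in direction. Scd2 had 20229 reads in CON and 12035 in SUP, which is 1105 and 912 CPM, and a log2 ratio of -0.26 (-0.30 to -0.23). Its paralogue Scd1 had 5519 and 3233 reads and -0.29 (-0.35 to -0.22). After the length and GC correction Scd2 had -0.14 (-0.17 to -0.10), still below 0.

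The sterol enzymes were lower in SUP or near the level of all genes. Idi1 had 486 and 248 reads, 26.6 and 18.8 CPM, and a log2 ratio of -0.48 (-0.71 to -0.26), the lowest of the 8 and at percentile 4.95 of measured genes. Sqle, a rate-limiting step after mevalonate, had 10193 and 5896 reads, 557 and 447 CPM, and a log2 ratio of -0.31 (-0.35 to -0.26), at percentile 14.9. After the correction Idi1 had -0.31 (-0.54 to -0.09) and Sqle -0.21 (-0.26 to -0.17), so both stayed below 0. Hmgcs1 had 9186 and 6073 reads, 502 and 460 CPM, and a log2 ratio of -0.11 (-0.16 to -0.07). Genes of its coding length had a median of -0.10, and after the length and GC correction Hmgcs1 stood at 0.05 (0.0027 to 0.10).

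Of the regulators, Srebf2 was the gene with the smallest difference, with 8468 and 6103 reads, 463 CPM in both libraries and a log2 ratio of 0.01 (-0.04 to 0.06), or -0.06 (-0.11 to -0.02) after the correction. Srebf1 had 1752 and 1052 reads, 95.7 and 79.7 CPM, and a log2 ratio of -0.25 (-0.36 to -0.14). The correction left Srebf1 at -0.33 (-0.44 to -0.22), the lowest of the 8 on that scale. Insig1 had 4034 and 2506 reads, 220 and 190 CPM, and a log2 ratio of -0.20 (-0.28 to -0.13), or -0.08 (-0.15 to -0.0093) after the correction. The counts do not separate the promoters and first exons of Srebf1 that give SREBP-1a and SREBP-1c. They also say nothing of the processing of the proteins.

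**Figure D3:**
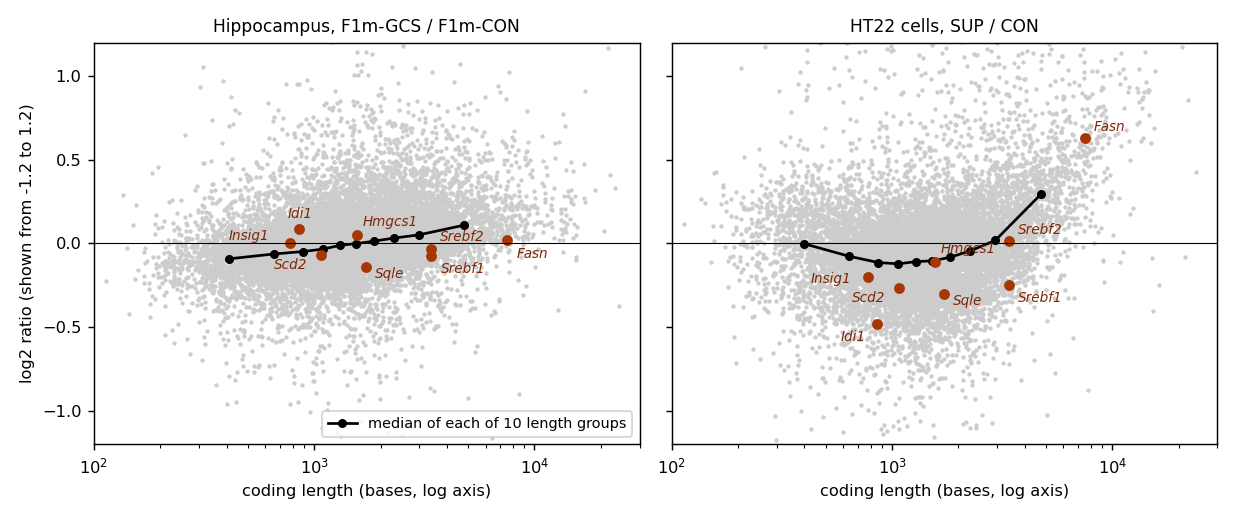
Log2 ratio against coding length (log axis) for all measured genes (grey), with the 8 genes named in brown and black points for the median of each of 10 equal length groups, in hippocampus (left) and HT22 cells (right). In HT22 cells the medians climb to 0.29 in the longest group, which holds Fasn, and Idi1, Sqle and Srebf1 lie below the medians of their groups.

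Cell type markers differed between SUP and CON in both directions, and their values are given beside these results. Of the 9 measured neuron markers 7 were at least 1.5-fold higher in SUP, against 5.13% of measured genes. The other 2 had intervals below 0, 1 of them past 1.5-fold lower. The median of the 9 was 1.41. Of the 11 oligodendrocyte markers 2 were measured, and both were higher, with a median of 0.95. Of 4 measured astrocyte markers 2 were at least 1.5-fold higher. The other 2 had log2 ratios below 0, 1 of them with an interval below 0. All 3 measured microglia markers had log2 ratios below 0, 2 of them with intervals below 0. Intervals also lay below 0 for the 1 measured endothelial marker and both measured choroid plexus markers, against 32.7% of measured genes. Among the 298 measured genes whose level in hippocampus was 20 or more times that in HT22 cells, none was one of the 8 lipid genes. Their level in hippocampus was between 0.179 times (Sqle) and 1.44 times (Scd2) that in HT22 cells, and 0.623 times for Fasn. The part of the marker difference in the lipid gene values was not tested.

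The authors' deposited table for HT22 cells gives a log2 fold change of 0.34 for Fasn, -0.12 for Sqle, -0.31 for Idi1, -0.16 for Srebf1 and -0.08 for Scd2. Its edgeR false discovery rates were 3.27e-29, 0.00118, 0.0545, 0.0421 and 0.0306 in that order. The same deposited table has Insig1 at -0.07 with a rate of 0.384, and Srebf2 at 0.02 and Hmgcs1 at 0.0051, both with a rate of 1. These fold changes are not the ratios of the count columns beside them, since the count ratio minus the deposited value was 0.29 for Fasn and -0.18 for Sqle, so they are not set against the ratios above. In the hippocampus table the 8 deposited fold changes equal the ratios computed here to 2 decimals except for Idi1, whose own ratio minus the deposited value was -0.00087.

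In the wider pathway in HT22 cells, of the 21 sterol synthesis enzymes none passed 1.5-fold, and the median log2 ratio was -0.11. Intervals lay below 0 for 13 and above 0 for 3, against 32.7% and 22.4% of measured genes. After the correction the median was -0.05, and 8 intervals lay below 0 and 5 above, against 24.6% and 26.0%. The summed level of the 21 enzymes was 5002 CPM in CON and 4597 CPM in SUP. Hsd17b7, a sterol ketoreductase, had -0.40 (-0.53 to -0.27), Cyp51, the lanosterol demethylase, -0.26 (-0.30 to -0.22) and Sc5d, a sterol desaturase, -0.24. Fdps, which makes farnesyl diphosphate, was higher, with 2609 and 2253 reads and 0.27 (0.19 to 0.35).

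Of 18 measured genes of fatty acid synthesis and desaturation 1, Fasn itself, passed 1.5-fold, and the median was -0.13. Intervals lay below 0 for 9 and above 0 for 4, against 32.7% and 22.4% of measured genes. After the length and GC correction 8 lay below and 6 above, with a median of -0.05, against 24.6% and 26.0%. Acaca, the acetyl-CoA carboxylase that supplies Fasn with malonyl-CoA, had 1172 and 1106 reads and 0.40 (0.28 to 0.52). Its coding sequence of 7038 bases lies in the same length group, and after the length and GC correction it had 0.11. Acacb, the mitochondrial form, had 50 and 49 reads and 0.44 (-0.14 to 1.05). Me1, which supplies NADPH, had -0.47 (-0.66 to -0.28) and Elovl5, an elongase of polyunsaturated fatty acids, -0.31 (-0.39 to -0.24).

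The genes of SREBP control had the lowest median of the 7 pathway lists in HT22 cells. Of 12 genes none passed 1.5-fold, 10 had intervals below 0 and none above, against 32.7% and 22.4% of measured genes. The median log2 ratio was -0.25, against -0.05 for all measured genes, or -0.18 after the correction. On the corrected scale 9 intervals lay below 0, against 24.6% of measured genes. Insig2, the second retention protein, had 1711 and 859 reads and -0.51 (-0.63 to -0.39). Mbtps2 had -0.38 and Rnf139, a ubiquitin ligase, -0.29. This list holds Srebf1, Srebf2 and Insig1, and without them the median of the remaining 9 genes was -0.28.

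Genes of sterol uptake went both ways. Of 13 measured, 1 was 1.5-fold higher and 1 lower, against 5.13% and 2.89% of measured genes, and the median was -0.15. Intervals lay above 0 for 3 and below 0 for 8, against 22.4% and 32.7%. After the length and GC correction 4 lay above and 6 below, with a median of -0.10, against 26.0% and 24.6%. Lrp1, a large receptor for apolipoprotein E, had 16966 and 21277 reads and 0.81 (0.78 to 0.84), with a coding sequence of 13638 bases, and 0.46 after the correction. Lipa, the lysosomal acid lipase that frees cholesterol from its esters, had 1630 and 737 reads and -0.66 (-0.79 to -0.53), and Osbp had -0.24. After the correction Lipa had -0.52, and neither it nor Lrp1 passed 1.5-fold.

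Of 7 measured genes of sterol efflux and turnover 2 were 1.5-fold higher in SUP, against 5.13% of measured genes. These were Cyp46a1 at 0.98 (0.43 to 1.63), on 42 and 61 reads, and Apoe at 0.70 (0.49 to 0.92), on 330 and 385 reads. Their levels in hippocampus were 49.2 and 45.1 times those in HT22 cells. In the triglyceride list Dgat2 had 0.35 (-0.0022 to 0.71) and Plin2, a lipid droplet coat protein, 7147 and 4206 reads and -0.28 (-0.34 to -0.23). Fatty acid oxidation genes had a median of -0.14 over 16 measured genes, against -0.05 for all measured genes. Of their intervals 8 lay below 0 and 1 above, against 32.7% and 22.4% of measured genes. After the length and GC correction 6 lay below and 2 above, with a median of -0.06, against 24.6% and 26.0%. Cpt2 had -0.39 and Acadvl, an acyl-CoA dehydrogenase, -0.34.

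**Figure D4:**
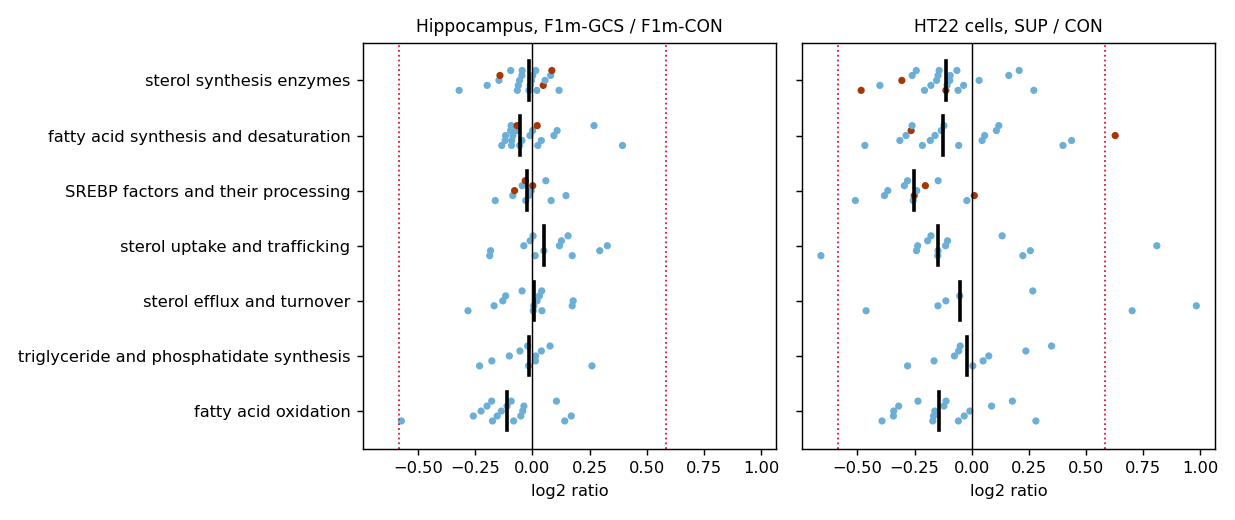
Log2 ratios of the measured genes of 7 pathway lists in hippocampus (left) and HT22 cells (right); each point is 1 gene, brown points are the 8 genes, blue points the other list genes, black bars are list medians, and dotted lines mark 1.5-fold. In hippocampus every point lies inside 1.5-fold, and in HT22 cells the points of the SREBP list lie mostly below 0, while Fasn, Lrp1, Apoe and Cyp46a1 lie beyond 1.5-fold above it and Lipa beyond 1.5-fold below it.

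Genes with the most similar pattern over the 4 libraries were sought among 7586 genes with at least 200 reads in every library. The distance was that of log2 CPM after subtraction of each gene's own mean, so the mean level of a gene did not count. The nearest to Fasn were Gon4l, Tns1 and Nup214, at distances of 0.05, 0.05 and 0.11 on the log2 scale. These CPM were not corrected for length or GC content. Nup214, with a coding length of 6258 bases, falls in the longest length group with Fasn. The part of coding length in these distances was not tested. Nearest to Sqle were Kansl2, Mfsd1 and Hnrnpf, to Scd2 Ghitm, Mettl17 and St6galnac6, and to Srebf2 Gpatch11, Tbl1x and Gnai2. None of these is in the pathway lists. Idi1 had too few reads for this comparison.

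Srebf1 shares 109 bases at its edge with Rai1 on the other strand, and Hmgcs1, Idi1, Srebf1, Srebf2 and Scd2 overlap short or noncoding genes in GENCODE M21. The labels do not say whether the counting used strand, so reads from such overlaps could not be assigned. Rai1 had 3667 and 3744 reads in hippocampus and 910 and 866 in HT22 CON and SUP.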

How the data were processed

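The deposited tables hold, per gene, the authors' raw read counts, RPKM values and edgeR results: log2 fold change, log2 average level, p-value and FDR, per the file headers. Per the series' design text, reads were trimmed with Trim Galore, aligned to mm10 with TopHat2 and counted with HTSeq. CASAVA 1.8 is named too, per the submitters' processing notes, and versions of the other tools are not stated in the labels. RPKM is per kilobase of a length that was a multiple of 3 for 99.8% of protein-coding genes, so it is called coding length.

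From the counts, libraries were scaled by TMM (edgeR 4.0.16, R 4.3.3), and a prior count of 2, in proportion to library size, was added for log2 ratios. Intervals are exact conditional (Clopper-Pearson) 95% intervals of the ratio of 2 counts, or exact Poisson intervals for RPKM; reads are not independent molecules, so both cover counting error only. Ratios were computed for the whole table. The length and GC correction subtracts the median of measured genes in the same of 10 coding length groups, then of 5 groups by GC content of each gene's longest coding transcript, GENCODE M21 (21096 of 22328 genes). Functions were tested on simulated counts. Named pathway genes are up to 4 per list and comparison, or 2 for the last 3 lists, with ratios farthest from 0. A few of them are not reported here. The 8 genes and the lists were chosen with earlier results of these data known. Of the 13 genes listed for SREBP processing 12 matched. Alternatives were total counts, size factors from DESeq2 1.42.0, a minimum of 10 or of 200 reads, a prior count of 0.25 or of 10, both corrections, the whole interval beyond 1.5-fold, and leaving out genes with 20 or more times the HT22 level in hippocampus. The comparison of HT22 CON with F1m-CON and its alternatives were added after the data were seen. Python 3.11.15 and scipy 1.17.1 were used.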

Additional observations from a re-analysis of the deposited data

Results flagged for a closer look

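Hmgcs1 had counting intervals on opposite sides of 0 in the tissue and the line, with a log2 ratio of 0.047 in hippocampus (F1m-GCS over F1m-CON) and -0.11 in HT22 cells (SUP over CON). After the correction for coding length and GC content the signs were exchanged, at -0.08 in hippocampus and 0.05 in HT22 cells. The difference between the comparisons was not tested, since each rests on 1 library per group.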

How the results depend on the processing

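In hippocampus the median log2 ratio of the 8 genes lay between -0.06 and -0.02 under 8 alternatives, and none of the 8 passed 1.5-fold under any of the 9 alternatives that give a count. In HT22 cells the median of the 8 was -0.23, and -0.12 after the coding length correction and -0.11 after the coding length and GC correction. The count of genes at least 1.5-fold higher there was 1 (Fasn), and 0 after the coding length correction, 0 after the coding length and GC correction and 0 with the whole interval beyond 1.5-fold. Under 6 other alternatives it was 1. The log2 ratio of Fasn in HT22 cells ranged from 0.27 to 0.64, that of Sqle from -0.32 to -0.21, that of Idi1 from -0.50 to -0.31 and that of Srebf1 from -0.33 to -0.24 over 9 alternatives. Leaving out genes with 20 or more times the HT22 level in hippocampus could not move the 8, none of which is such a gene. No paired analysis was possible because each group holds 1 library, and leaving out a library was not possible for the same reason. Idi1, with 180 and 184 reads in hippocampus, was not measured there with at least 200 reads.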
